A study of Mus musculus with 18 samples.

Results

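DNA replication and checkpoint genes were followed through the first weeks after birth in mouse liver, under a microRNA mimic and its control. The set holds 45 genes of the 31165 in the deposited table, taken by gene symbol, and each has 1 row. By role it holds 5 origin licensing genes, 11 helicase genes, 6 polymerase and primase genes, 7 genes of the sliding clamp, flap removal, ligation and single-strand binding, 5 genes of nucleotide supply, 3 chromatin genes, 3 E2F factors and 5 checkpoint genes. The last include Wee1, Chek1 and Cdc25a, reported targets of the microRNA family, which are compared below with the other 42.

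The livers came from C57BL/6J mice with no other allele named. Pups received a mimic of miR-497a-5p or a scrambled mimic as control into the peritoneal cavity on P1 (the day of birth) and P3. The harvest was at P5, P7 or P14, with 3 libraries of each mimic at each day and 18 in all. Doses of 100 and of 10 mg per kg appear in the protocol, but no library is labelled with its dose. Pups were spread over nursing dams in litters of equal size, but the labels tie no library to a litter, so the p-values measure the spread between these livers. Each library was made from a small cube of whole liver, which at this age still holds blood-forming cells beside hepatocytes. In such bulk samples, fewer cells of a type and less RNA per cell cannot be told apart.

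Before a cell copies its DNA, the origin recognition complex with Cdc6 and Cdt1 loads the ring-shaped Mcm2-7 helicase onto origins. In S phase, Cdc45 and the GINS complex join that ring, primase and the polymerases copy the strands, and the clamp Pcna keeps the polymerases on DNA. Most of these genes are transcribed under E2F factors and are therefore abundant in dividing cells. Chek1 and Wee1 are kinases that restrain cyclin-dependent kinases and hold back mitosis when replication stalls, and Cdc25a is the phosphatase that they oppose. Members of the miR-15/16 family, to which miR-497a-5p belongs, are known repressors of cell cycle genes, and the liver loses most of its proliferation and its blood formation in the weeks after birth.

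The mature sequences below (RefSeq, GRCm38.p6) show what the mimic shares with the family. Capitals mark the seed, bases 2 to 8, by which a microRNA recognises its targets, and it is the same in all 6.
mmu-miR-497a-5p: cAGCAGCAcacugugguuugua
mmu-miR-195a-5p: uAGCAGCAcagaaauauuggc
mmu-miR-15a-5p: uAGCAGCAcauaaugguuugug
mmu-miR-15b-5p: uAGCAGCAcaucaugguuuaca
mmu-miR-16-5p: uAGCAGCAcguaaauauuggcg
mmu-miR-322-5p: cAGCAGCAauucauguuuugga
The gene of miR-497a-5p lies beside that of miR-195a-5p on chromosome 11, at chr11:70234730-70234751 and chr11:70235062-70235082, both on the plus strand.

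The reverse complement of the seed, TGCTGCT, was searched in the longest annotated 3′ UTR of each gene (GENCODE M21, GRCm38). It occurred in 7 of 45 members (15.6%), against 24.5% of the tested genes with an annotated 3′ UTR. The longer match TGCTGCTA, with A opposite the first base of the microRNA, occurred in 4 of 45 (8.89%), against 4.59% of those genes. Those 4 were Wee1, Chek1, Cdc25a and Gins2, and the shorter match alone was found in Cdc6, Chaf1a and Clspn, in Chaf1a beyond the gene end given in the table. GCTGCTA, the longer match without its first letter, occurred without TGCTGCT in Mcm5 and Rfc5, which are not counted as matches here. Windows of 30 bases in the 3′ UTR exons are shown for the 3 reported targets, for Gins2 and for Clspn, which has 2 matches, with the match in capitals.
Wee1, chr7:110142386-110142415, plus strand: ctgtggtggtgTGCTGCTtctcattcactg
Wee1, chr7:110142657-110142686, plus strand: ccttgtgaattTGCTGCTAttttagtttcc
Chek1, chr9:36710279-36710308, minus strand: ggtgaatagagTGCTGCTAtgtgacatttt
Cdc25a, chr9:109892554-109892583, plus strand: agccgcccaagTGCTGCTggccaaatacca
Cdc25a, chr9:109892859-109892888, plus strand: cagaccagtatTGCTGCTActcaaagtcaa
Gins2, chr8:120580993-120581022, minus strand: agagtacagacTGCTGCTAtaagtggctaa
Clspn, chr4:126593405-126593434, plus strand: ccactatttatTGCTGCTttggggccgagt
Clspn, chr4:126593583-126593612, plus strand: gcagaattcagTGCTGCTttgcaaaaacca
Wee1 and Cdc25a each carry both the shorter and the longer match, and Chek1 carries the longer one 38 bases into its 3′ UTR. A match describes the letters only and is no measured site of binding.

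Values are called scaled counts: from their look, read counts per gene that had been put on a common scale and rounded. They sum to between 3954405 and 4248257 per library. Whether values of strongly expressed genes were compressed before deposit was not tested, so levels and changes of such genes may be understated. The number of reads behind a value was not used here. All 45 members were among the 14104 genes with a mean of 10 or more that were tested with limma on log2(value + 1), which makes changes of weakly expressed genes look slightly smaller. P-values were adjusted over all 14104 by the Benjamini-Hochberg method, and a gene is said to have risen or fallen only where the adjusted value is under 0.05. Several libraries stood apart. P7 scrambled replicate 1 was the lowest of the 6 P7 libraries in 32 of 45 members, and its 8 skeletal muscle markers summed to 1788 against 34 to 438 in the other P7 libraries. P7 scrambled replicate 3 was the highest of its day in 29 members, P5 mimic replicate 2 the lowest in 30, and P14 mimic replicate 3 the highest in 33. The libraries also differed in how values ran with transcript length: Spearman's rho between a gene's deviation from its mean and its length lay between -0.352 and 0.197 at P5 and between 0.0534 and 0.485 at P7.

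Every member fell from P5 to P14. The decrease was called in 45 of 45 members, beside 24.8% of all genes tested called lower, and its median was -0.91 on the log2 scale, beside 0.01 over all genes. The 45 changes ran from -3.26 in Orc1, the largest subunit of the origin recognition complex, to -0.32 in Tk1, the salvage kinase of thymidine. In 41 of the 45 all 6 P14 libraries lay below all 6 P5 libraries, which held in 15.3% of all genes, and the exceptions were Dut, Mcm10, Rfc5 and Wee1. The decrease was unevenly divided between the intervals. From P7 to P14, 37 members fell (26.3% of all genes were called lower) with a median of -0.67, and all 6 P14 libraries lay below all 6 P7 libraries in 28 members (14.6% of all genes). From P5 to P7, 25 members fell (13.2% of all genes) with a median of -0.31, and all 6 P7 libraries lay below all 6 P5 libraries in 8 members (3.31% of all genes). None rose in any interval.

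**Figure D1:**
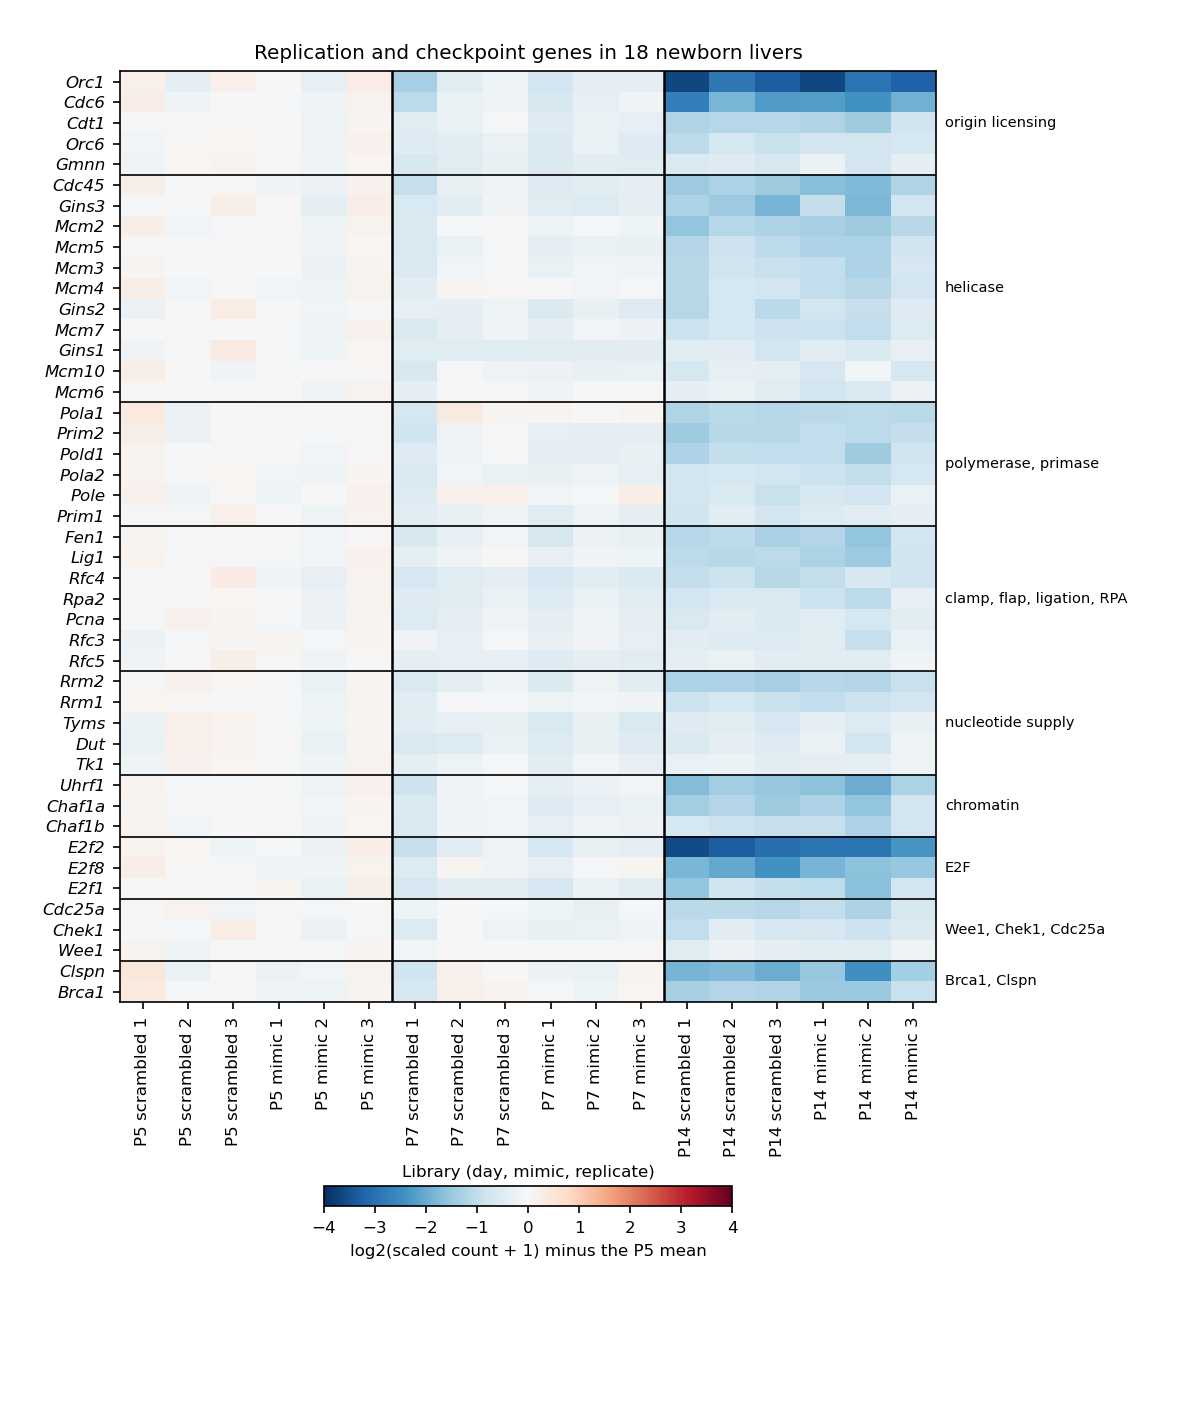
Heat map of 45 genes (rows, grouped by role and ordered by the change from P5 to P14) in 18 libraries (columns). Colour gives log2(scaled count + 1) minus the mean of the gene over the 6 P5 libraries; the P14 columns are below 0 in every row on average, most in Orc1 (-3.26) and E2f2 (-3.01).

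The count from P5 to P7 varied more with the libraries and the scaling than the others. Transcript length moved with the change: Spearman's rho between change and length was 0.481 over 14096 genes and 0.56 over the 45 members, a description across genes that share libraries. Of the 7 members under 2 kb all fell (median -0.46), of the 28 between 2 and 4 kb 16 fell (-0.30), and of the 10 over 4 kb 2 fell (-0.17). With the trend with length removed from each library, an adjustment chosen after the data were seen, 21 members fell, beside 8.27% of genes. With the slope of each library on length as a covariate, 0 members fell and 0% of genes were called lower, although the members' median was still -0.28; under this covariate 37 still fell from P7 to P14 and all 45 from P5 to P14. From P7 to P14 the trend with length ran the other way, with a rho of -0.297 over all genes and -0.386 over the members. In that interval 3 of the 7 members under 2 kb fell (median -0.205). Of the 28 between 2 and 4 kb 25 fell (-0.758), and of the 10 over 4 kb 9 fell (-1.02). In the scrambled livers alone 0 members fell from P5 to P7 and in the mimic livers alone 5 did. Without P5 mimic replicate 3 the count was 13, and without P7 mimic replicate 1 it was 14. Without P7 scrambled replicate 1 the count was 17. A fit without P7 scrambled replicates 2 and 3 together left only replicate 1, a library that stood apart, in its group, so its counts are not given here.

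Origin licensing genes contained the widest range of all roles: 5 of 5 fell from P5 to P14, with log2 changes of -3.26 to -0.53. Orc1 (chr4:108579454-108614833) had scaled counts of 225, 153 and 225 in the scrambled and 196, 157 and 242 in the mimic livers at P5. At P7 they were 78, 147 and 174 against 115, 150 and 150, and at P14 15, 26 and 19 against 15, 25 and 20. The 3 days overlapped between P5 and P7 only, and 10.0% of the P5 mean was left at P14. The change of Orc1 was -0.58 (SE 0.20, limma adjusted p = 0.0379) in the first interval and -2.69 (SE 0.20, adjusted p = 4.7e-09) in the second. The first did not pass without P5 scrambled replicate 1 or 3, P5 mimic replicate 1 or 3, P7 scrambled replicate 1, or P7 mimic replicate 1 or 3, with adjusted p between 0.0569 and 0.104. With all libraries kept it did not pass without a filter on low values (0.0611), without the mean-variance trend (0.0535), with the length trend removed (0.0622) or with the slope on length as a covariate (0.332). Part of the exons of Orc1 (10.8%) overlaps an antisense transcript, Gm12743.

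Cdc6 (chr11:98907801-98923936), the ATPase that works with the origin complex to load the helicase, followed the same course at a smaller size. Its scaled counts at P5 were 459, 343 and 377 in scrambled and 362, 348 and 424 in mimic livers. They were 183, 317 and 350 against 245, 303 and 343 at P7, and 57, 108 and 79 against 81, 70 and 100 at P14. All P14 livers were below all P7 livers, and P7 scrambled replicate 1 was again the lowest of its day. Cdc6 changed by -0.43 (SE 0.16, limma adjusted p = 0.0556) from P5 to P7, which did not pass but did under TMM (0.049) and quantile (0.0382) scaling, and by -1.80 (SE 0.16, adjusted p = 7.9e-08) from P7 to P14.

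Cdt1, the partner of Cdc6 in loading, fell in both intervals, by 0.32 and 0.83 on the log2 scale. The first decrease did not pass without P5 mimic replicate 3 (limma adjusted p = 0.0584) or P7 mimic replicate 1 (0.0619). Its lowest, median and highest scaled counts were 383, 454 and 476 at P5, 310, 360 and 423 at P7, and 166, 196 and 254 at P14, so P7 and P14 did not overlap. Its inhibitor geminin (Gmnn) took another course: it fell by 0.48 (limma adjusted p = 0.00366) from P5 to P7 and changed by -0.05 (adjusted p = 0.646) afterwards. With the slope on length as a covariate the first change was -0.278 for Gmnn (adjusted p = 0.445) and -0.235 for Cdt1 (0.573). The longest annotated transcript is 1.13 kb for Gmnn and 2.7 kb for Cdt1. All tested genes under 2 kb had a median of -0.206 from P5 to P7 and 0.202 from P7 to P14. The part of length in this contrast was not tested. Gmnn had 245, 288 and 306 at P5, 180, 198 and 227 at P7, and 164, 191 and 236 at P14. At P14, 45.1% of the P5 mean was left for Cdt1 and 69.2% for Gmnn. Orc6, the smallest origin subunit, fell by 0.43 and then 0.37.

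In the helicase group 11 of 11 genes fell from P5 to P14, 9 from P7 to P14 and 5 from P5 to P7. The subunits of the Mcm ring did not decline equally. Mcm2 fell most of the 6, by 1.30 (SE 0.11, limma adjusted p = 9.22e-09), then Mcm5 by 1.07, Mcm3 by 0.94, Mcm4 by 0.91 and Mcm7 by 0.79, and Mcm6 fell least, by 0.44 (adjusted p = 0.000334). Mcm2 had 927, 730 and 757 in scrambled and 774, 696 and 879 in mimic livers at P5, 514, 748 and 792 against 681, 756 and 704 at P7, and 265, 356 and 336 against 311, 293 and 366 at P14. From P5 to P7 it changed by -0.19 (adjusted p = 0.189) and from P7 to P14 by -1.12. Mcm6 ran from 898 to 1095 at P5, from 759 to 1008 at P7 and from 596 to 841 at P14.

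Per kb of the longest annotated transcript, the ring subunits were close to each other at P5, from 188 scaled counts per kb in Mcm4 to 265 in Mcm7, and at P14 they lay between 91.9 in Mcm2 and 168 in Mcm6. Cdc45, which joins the ring when an origin fires, fell by 1.46, more than any Mcm subunit. The GINS genes, whose products act as 1 complex, parted: Gins3 fell by 1.35 from P5 to P14, Gins2 by 0.85 and Gins1 by 0.50. Their longest annotated transcripts are 2.52 kb (Gins3), 3.9 kb (Gins2) and 1.09 kb (Gins1). Gins1 stood at 129 to 137 in the 6 P7 livers and at 109 to 144 in the 6 P14 livers, a change of -0.02 (limma adjusted p = 0.852). Mcm10, a factor for helicase activation, was the other helicase gene that did not pass from P7 to P14 (-0.19, adjusted p = 0.161). For Gins2, 67.3% of the exon bases overlap Gse1 on the opposite strand, and the strand setting of the authors' counting is not stated in the sources used, so its values are uncertain. Smaller overlaps on the opposite strand, of up to 12.7% of the exon bases (Rfc4 with Eif4a2), are annotated for Orc6, Mcm7, Cdc45, Pole, Rfc5, Lig1, Tk1 and E2f8.

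Polymerase and primase genes all fell from P7 to P14 (6 of 6), and 4 of 6 fell from P5 to P7. Pola1, the catalytic subunit of the polymerase that extends the primer, had a change of 0.00 (limma adjusted p = 0.998) in the first interval and of -1.10 (adjusted p = 2.32e-06) in the second. Its lowest, median and highest values were 281, 320 and 434 at P5, 205, 355 and 426 at P7, and 144, 155 and 160 at P14. The 6 P14 values of Pola1 were close together and well below both earlier days. Pole, the leading strand polymerase, behaved alike with -0.01 and -0.65. Its partner for the lagging strand, Pold1, fell by 0.30 and 0.76. The primase subunits differed: Prim2 fell by 1.10 from P5 to P14 and Prim1, which makes the primer, by 0.55.

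The 7 genes of the clamp, flap removal, ligation and strand binding fell from P5 to P14 by 0.35 to 1.17. Pcna, the clamp and a common marker of proliferation, was among the smaller decreases. Its scaled counts were 368, 442 and 426 in scrambled and 375, 336 and 419 in mimic livers at P5, 268, 307 and 359 against 296, 349 and 296 at P7, and 255, 290 and 261 against 281, 242 and 292 at P14. P7 and P14 overlapped while P5 and P14 did not. Pcna fell by 0.34 (SE 0.09, limma adjusted p = 0.0107) from P5 to P7, by 0.54 (SE 0.09, adjusted p = 3.68e-05) over both intervals, and its change of -0.21 from P7 to P14 did not pass (adjusted p = 0.0535). With the length trend removed, the pair of intervals changed places for Pcna: -0.17 (adjusted p = 0.111) and then -0.37 (adjusted p = 0.000435).

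Fen1, which cuts the flap of each Okazaki fragment, and Lig1, which seals the nick, fell by 1.17 and 1.12 from P5 to P14. Of Fen1's exon bases 78.8% overlap the antisense transcript Gm10143, so its values are uncertain in the same way. The clamp loader subunits fell less. Rfc4 fell by 0.53 in the first interval, which among members that passed was second only to Orc1, and by 0.36 in the second; it stood at 219 to 342 at P5, 172 to 210 at P7 and 127 to 174 at P14. Rfc3 fell by 0.52 over both intervals and Rfc5 by 0.35, with 0.05 (limma adjusted p = 0.644) for Rfc5 from P7 to P14. Rpa2, a subunit of the single-strand binding protein, fell by 0.70.

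Nucleotide supply was split in the second interval. The ribonucleotide reductase subunits Rrm1 and Rrm2, which make deoxynucleotides, fell by 0.67 and 0.77 from P7 to P14. The 3 enzymes around thymidine nucleotides, Tyms (-0.05), Tk1 (-0.07) and Dut (0.01), did not pass in that interval (limma adjusted p between 0.468 and 0.966). Tk1 ran from 399 to 511 at P5, from 338 to 430 at P7 and from 327 to 388 at P14, and 79.8% of its P5 mean was left at P14. Rrm2 had the highest level of all members per kb at P5, with 406 scaled counts per kb, and again at P14, with 180. The chromatin genes fell in 3 of 3 cases from P5 to P14. Uhrf1, which brings the maintenance DNA methyltransferase to new strands, fell by 1.59, and the chromatin assembly subunits Chaf1a and Chaf1b by 1.26 and 0.90. Of Chaf1a's exon bases in GENCODE M21 52.5% overlap Ubxn6 on the other strand.

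**Figure D2:**
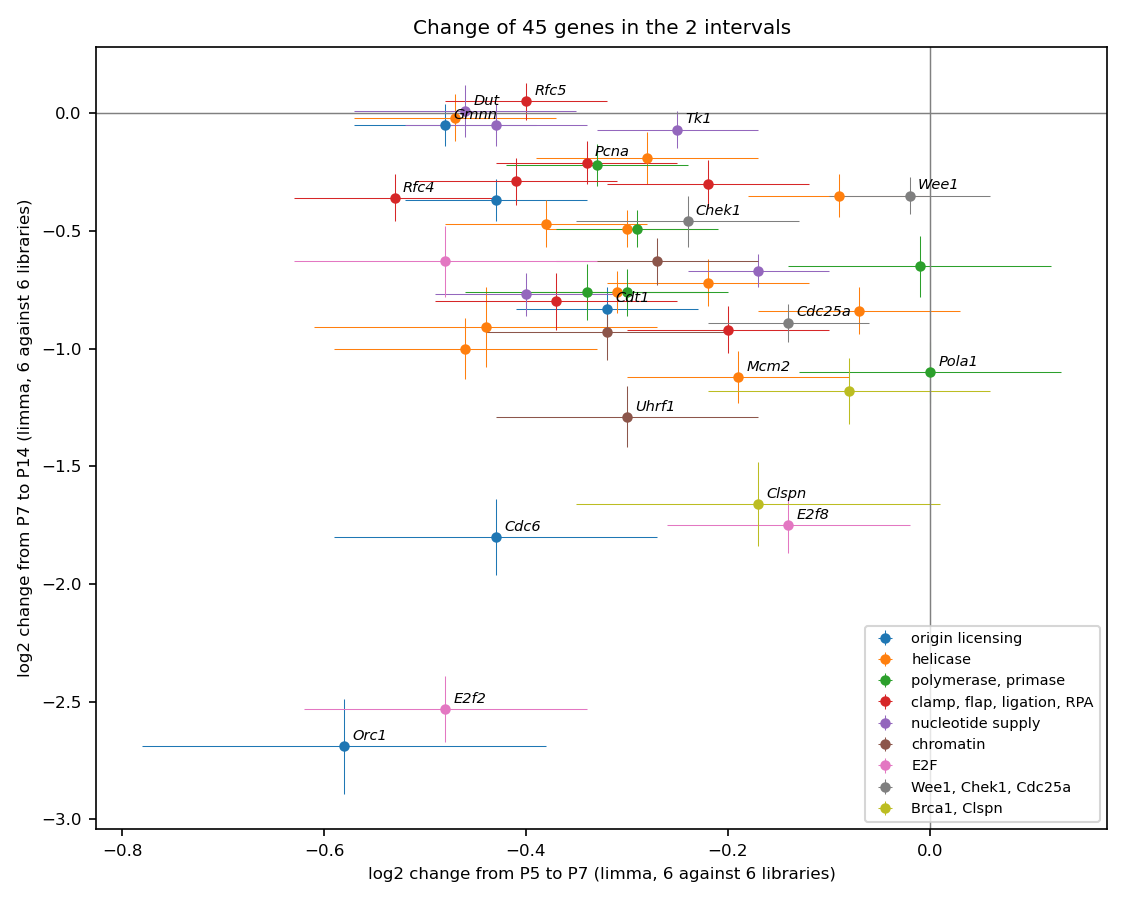
Each point is 1 of 45 genes, coloured by role, with its log2 change from P5 to P7 (x axis) and from P7 to P14 (y axis) and bars of 1 SE (limma, 6 against 6 libraries). Orc1, E2f2, Cdc6, E2f8 and Clspn lie far below the rest on the y axis, while Rfc5, Dut, Gmnn and Tk1 lie near 0 there; Pola1 and Wee1 lie near 0 on the x axis.

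Among the E2F factors, E2f2 was close to Orc1 in the size of its decrease. E2f2 (chr4:136172394-136196057), an activating E2F that is abundant in maturing red cells, had 1424, 1365 and 1114 in scrambled and 1257, 1102 and 1557 in mimic livers at P5. At P7 it had 684, 959 and 1129 against 793, 1058 and 1008, and at P14 107, 130 and 160 against 172, 170 and 253. Only P5 and P7 overlapped, at 1102 to 1129, and 12.7% of the P5 mean was left at P14. E2f2 fell by 0.48 (SE 0.14, limma adjusted p = 0.0172) and then fell by 2.53 (SE 0.14, adjusted p = 8.05e-11). As for Cdt1, the first decrease did not pass without P5 mimic replicate 3 (adjusted p = 0.0555) or P7 mimic replicate 1 (0.0568). At P5 it was, with 275 scaled counts per kb, second of the 45 members, and at P14 it had 34.9.

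E2f8, an atypical E2F that represses the same targets, changed by -0.14 (limma adjusted p = 0.404) in the first interval and fell by 1.75 (adjusted p = 2.29e-09) in the second. It had 394, 438 and 530 as lowest, median and highest at P5, 302, 420 and 477 at P7, and 82, 124 and 154 at P14. E2f1, the best known activator of S phase genes, fell less than E2f2, by 1.11 over both intervals. Of 10 other E2F and retinoblastoma family genes on a list of the pathway, 7 fell and 1 rose from P5 to P14. The largest decreases were those of the restraining factor Rb1 (-1.56, limma adjusted p = 4.71e-08), E2f7 (-1.53) and the E2F partner Tfdp2 (-1.36), and Rbl2, a relative of Rb1 linked with resting cells, rose by 0.48 (adjusted p = 0.00163).

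Members that share a course were looked at for shared letters around annotated starts. Windows from 250 bases before to 50 after the start, from RefSeq (GRCm38.p6), were found for 38 members. Some windows lay wholly inside the gene bounds of the table, among them those of E2f1, Dut, Cdc6 and Mcm7. Of these genes, Cdc6 and Mcm7 are counted below with a match and E2f1 and Dut without. Lig1 and Uhrf1 are also counted with a match only through a window inside the gene (chr7:13278576-13278875 and chr17:56304063-56304362). Their windows nearest the gene start held none. In them 4 forms of the E2F motif were searched on both strands: TTTGGCGC, TTTCGCGC, TTTCCCGC and TTTGCCGC, of which the first pair can overlap each other on opposite strands. At least 1 was present in 16 of the 38 (42.1%), against 2.6% of 27025 genes and 2.26% of 32851 windows of the same length. The 27025 are all genes with such a window, expressed in these livers or not, and are not the 14104 tested. The median change from P5 to P14 was -1.11 in the 16 members with a match and -0.82 in the 22 without, with ranges of -3.26 to -0.44 and -1.89 to -0.32 that overlap broadly. No windows were matched for Gins1, Gins2, Gmnn, Mcm4, Pole, Prim2 and Wee1. The 200 bases before the start are shown for Orc1, which fell most, for Mcm5 and Mcm6, where matches overlap, and for Cdc25a, with the matches in capitals.
Orc1, chr4:108579254-108579453, plus strand: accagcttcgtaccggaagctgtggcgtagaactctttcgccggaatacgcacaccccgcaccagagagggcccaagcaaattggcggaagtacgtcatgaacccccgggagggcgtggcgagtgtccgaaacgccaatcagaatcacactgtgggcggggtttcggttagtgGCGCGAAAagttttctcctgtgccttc
Mcm5, chr8:75109309-75109508, plus strand: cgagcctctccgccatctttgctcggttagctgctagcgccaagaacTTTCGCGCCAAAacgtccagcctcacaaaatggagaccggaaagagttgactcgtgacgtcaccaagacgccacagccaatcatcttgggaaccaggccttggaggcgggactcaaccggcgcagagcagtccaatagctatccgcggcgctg
Mcm6, chr1:128359706-128359905, minus strand: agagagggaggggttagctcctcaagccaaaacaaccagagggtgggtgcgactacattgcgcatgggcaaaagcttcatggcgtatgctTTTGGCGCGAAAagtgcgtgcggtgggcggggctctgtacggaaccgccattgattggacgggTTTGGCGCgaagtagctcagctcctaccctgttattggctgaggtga
Cdc25a, chr9:109875379-109875578, plus strand: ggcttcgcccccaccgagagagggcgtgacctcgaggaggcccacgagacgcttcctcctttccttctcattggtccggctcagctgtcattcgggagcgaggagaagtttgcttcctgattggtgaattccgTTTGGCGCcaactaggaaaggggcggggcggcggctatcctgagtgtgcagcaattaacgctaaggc
Mcm6, with 3 matches in its window, was among the members that fell least, and Orc1, with 1 match 27 bases before its start, fell most.

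The 3 checkpoint genes that are reported targets fell from P5 to P14, Chek1 and Wee1 by less than the median member (-0.91) and Cdc25a by more. From P5 to P7 none of the 3 passed, while 25 of the other 42 did (13.2% of all genes were called lower). From P7 to P14 all 3 fell, as did 34 of the 42 (26.3% of all genes). Over both intervals their median change was -0.70 against -0.93 in the other members. At an unadjusted p of 0.0449, Chek1 came nearest to passing in the first interval. The 3 ranked the 21st (Cdc25a), 32nd (Chek1) and 43rd (Wee1) of 45 by size of decrease, and the difference between the 3 and the 42 was not tested.

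Wee1 (chr7:110122046-110143286), the kinase that blocks entry into mitosis, had its decrease from P7 to P14. It had 269, 212 and 244 in scrambled and 237, 228 and 263 in mimic livers at P5, 224, 252 and 241 against 236, 229 and 252 at P7, and 174, 204 and 185 against 180, 171 and 212 at P14. The 6 P7 values lay inside the P5 range, and the P14 values lay below P7 and touched the lowest P5 value. Wee1 changed by -0.02 (SE 0.08, 95% interval -0.18 to 0.15, limma adjusted p = 0.902) and then fell by 0.35 (SE 0.08, adjusted p = 0.00154), so that 77.5% of the P5 mean was left. With the slope on length as a covariate the second value was -0.26 (adjusted p = 0.0593).

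Chek1 (chr9:36708482-36726658), the kinase activated at stalled forks, had 211, 203 and 259 in scrambled and 209, 176 and 204 in mimic livers at P5. It had 142, 211 and 182 against 169, 175 and 191 at P7, and 104, 151 and 132 against 131, 117 and 140 at P14. All P14 livers were below all P5 livers, and P7 overlapped both. Chek1 changed by -0.24 (SE 0.11, limma adjusted p = 0.113) and fell by 0.46 (SE 0.11, adjusted p = 0.00221). The second value was -0.31 without P7 scrambled replicates 2 and 3, a fit with only replicate 1 left in that group.

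Cdc25a (chr9:109875579-109893895), the phosphatase that starts S phase, had 393, 420 and 350 in scrambled and 369, 358 and 380 in mimic livers at P5. It had 334, 377 and 356 against 332, 304 and 355 at P7, and 180, 179 and 172 against 189, 160 and 230 at P14. The P14 values lay far below both earlier days, which overlapped. Cdc25a changed by -0.14 (SE 0.08, limma adjusted p = 0.193) and fell by 0.89 (SE 0.08, adjusted p = 6.96e-08), leaving 48.9% of its P5 mean.

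Brca1 and Clspn, which act in fork protection and in passing the stall signal to Chek1, fell from P7 to P14 and did not pass before. Clspn changed by -0.17 (95% interval -0.55 to 0.21, limma adjusted p = 0.514) and then fell by 1.66 (adjusted p = 8.56e-07), and Brca1 changed by -0.08 (-0.37 to 0.21, adjusted p = 0.683) and then fell by 1.18. Clspn ran from 290 to 472 at P5, from 197 to 392 at P7 and from 63 to 134 at P14. On a list of 18 further checkpoint and fork repair genes, 17 were tested: 5 fell and 2 rose from P5 to P7, and 12 fell and 0 rose from P5 to P14. Cdc25b, a relative of Cdc25a for entry into mitosis, had the largest decrease (-2.86, limma adjusted p = 1.14e-13), from a mean of 924 at P5 to 127 at P14. Bard1, the partner of Brca1, fell by 2.14 and Fanci by 1.60. The 2 that rose from P5 to P7 were the upstream kinases Atm (1.22, adjusted p = 0.0055) and Atr (0.34, adjusted p = 0.0113), both of them long transcripts.

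**Figure D3:**
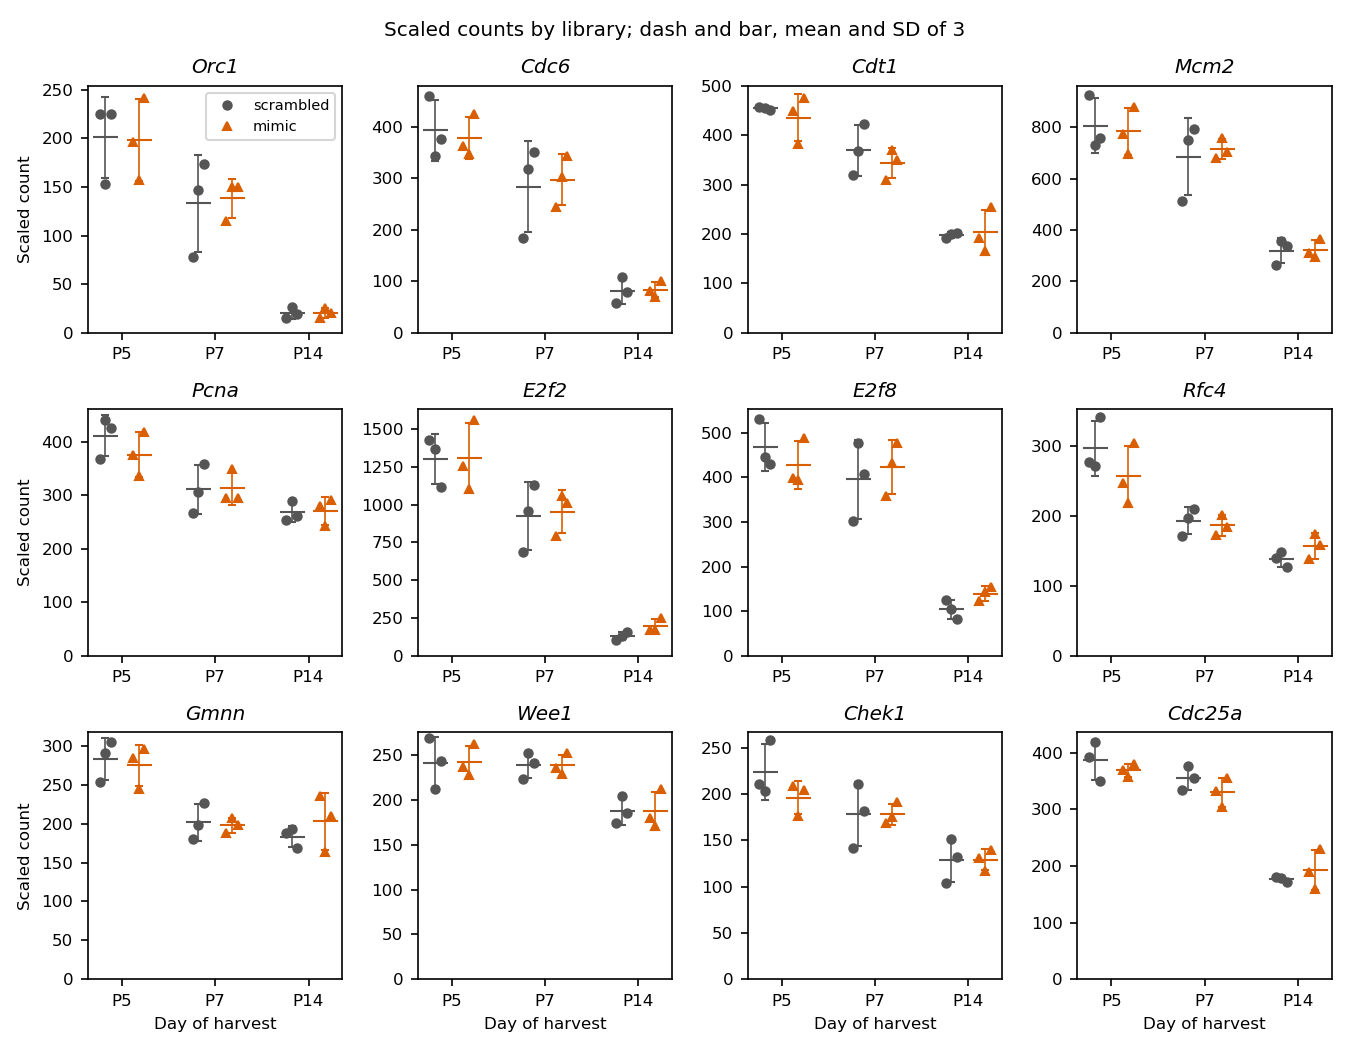
Scaled counts (y axis, from 0) of 12 genes by day of harvest (x axis) in scrambled (circles) and mimic (triangles) livers, 3 each; dashes and bars are the mean and SD. Orc1 and E2f2 drop to 10.0% and 12.7% of their P5 mean at P14, Wee1 keeps 77.5%, and mimic and scrambled points overlap in all panels except E2f2 at P14.

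Replication genes outside the set moved in the same direction. Of 46 further replication genes, 19 fell and 0 rose from P5 to P7, 28 fell and 6 rose from P7 to P14, and 35 fell and 1 rose from P5 to P14. The largest decreases from P5 to P14 were those of Ticrr (-2.16), needed to bring Cdc45 to origins, the firing kinase Cdc7 (-1.87) and Dscc1 (-1.81), a subunit of an alternative clamp loader. The gene that rose was Shmt1 (0.27, limma adjusted p = 0.00111), a folate enzyme that liver expresses for other purposes too. From P7 to P14 the largest rises were small: Rnaseh2c (0.39), Dctpp1 (0.37) and Pole4 (0.35). The median change from P5 to P14 of this list was -0.46, beside -0.91 in the 45 members and 0.01 over all genes. These lists, like the members, were drawn up with earlier results of these data known.

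Markers of blood-forming cells moved with the decrease. Of 15 erythroid markers measured, 14 fell from P5 to P14, with a median of -4.72, as did 14 of 14 neutrophil precursor markers (-2.63), 9 of 9 megakaryocyte markers (-2.61) and 8 of 10 B cell precursor markers (-1.09). The summed erythroid markers were 12873 to 17913 scaled counts at P5, 8680 to 14487 at P7 and 2097 to 3760 at P14, with no marker at 0 throughout a group. Of 12 hepatocyte markers 0 fell and 2 rose from P5 to P14, and their median was 0.01. Alb had means of 2202, 1909 and 2147 at P5, P7 and P14, below those of Apob (3636, 6110 and 4492). Whether such high values were held down by the processing was not tested. The flat hepatocyte markers are therefore no measure of a constant share of hepatocytes. Within P7, scrambled replicate 1 had the lowest mean of the 45 genes (-0.58 against the P5 mean), of the erythroid (-0.89), neutrophil precursor (-0.74) and B cell precursor markers (-0.85) and, by little, of the hepatocyte markers (-0.18). The same library had the highest mean of the muscle markers (5.17). Megakaryocyte markers were lowest in scrambled replicate 2 (-0.95, against -0.90 in replicate 1), whose mean of the 45 genes was -0.20. P7 scrambled replicate 3 had the highest mean of the 45 genes (-0.13) and of the erythroid markers (-0.14). Within P14 the order differed: the library with the most erythroid signal in sum, mimic replicate 2 (3760), had the lowest mean of the 45 genes (-1.20). How much of the decrease in the replication genes belongs to blood-forming cells was not tested.

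**Figure D4:**
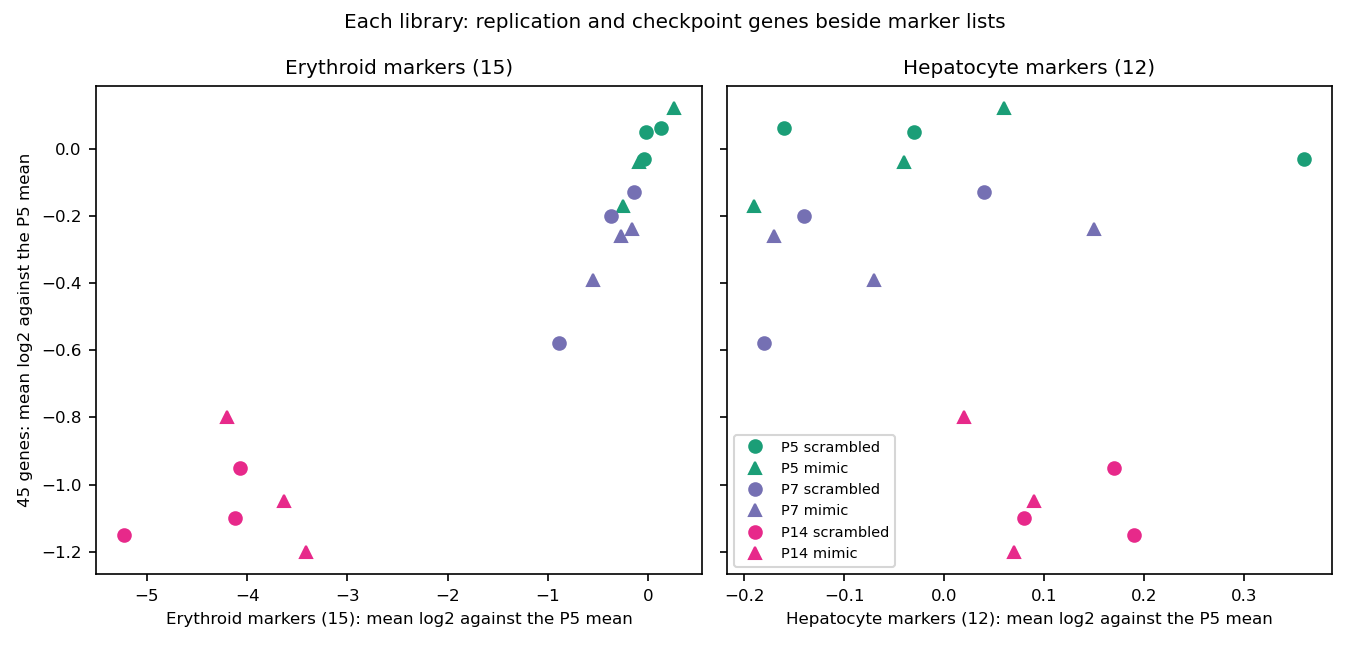
Each point is 1 of 18 libraries, coloured by day and shaped by mimic; the y axis is the mean log2 value of the 45 genes against their P5 mean, and the x axes give the same for 15 erythroid (left) and 12 hepatocyte markers (right). P5 and P7 points lie along a line on the left, the P14 points lie apart at erythroid values of -5.23 to -3.41, and the hepatocyte values stay between -0.19 and 0.36.

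The mimic comparison asked whether the injected microRNA lowered these genes, the reported targets among them. No member passed at any day. At P5, 0 of 45 members were called, beside 0% of all genes; at P7 0 of 45, beside 0.00709%; at P14 0 of 45, beside 0.0213%. Averaged over the 3 days 0 of 45 were called (0.00709% of all genes), and so it was for the test of a difference of the effect between days (0.00709%). At an unadjusted p under 0.05 the counts were 0, 0, 2, 0 and 0 members in that order. The median differences, mimic minus scrambled, had values of -0.05, 0.02 and 0.02 at P5, P7 and P14, beside -0.015, -0.005 and 0.004 over all genes, and at P5 6 of 45 members lay above 0. Of all 14104 genes 6344 lay above 0 at P5, and the marker lists were divided. Above 0 were 0 of 12 hepatocyte, 0 of 14 neutrophil precursor and 5 of 15 erythroid markers. So were 9 of 10 B cell precursor, 6 of 9 megakaryocyte and 4 of 7 tested muscle markers. The 95% interval of a member's difference extended by a median of 0.30 on the log2 scale to each side; this interval is not adjusted for the number of genes, and a difference of 0.57 (E2f2 at P14) was not called.

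Wee1 differed by 0.01 (95% interval -0.23 to 0.25) at P5, 0.00 (-0.24 to 0.24) at P7 and -0.00 (-0.24 to 0.23) at P14. The mimic and scrambled values of Wee1 given above overlapped at each day. Chek1 differed by -0.19 (-0.51 to 0.14), 0.02 (-0.31 to 0.34) and 0.02 (-0.31 to 0.34), and Cdc25a by -0.07 (-0.31 to 0.17), -0.11 (-0.35 to 0.13) and 0.11 (-0.13 to 0.35). Averaged over the days the differences were 0.00 (-0.13 to 0.14) for Wee1, -0.05 (-0.24 to 0.14) for Chek1 and -0.02 (-0.16 to 0.12) for Cdc25a. The limma adjusted p was at least 0.929 for each of the 3 at each day. The P5 value of Chek1 was -0.08 without P5 scrambled replicate 3 and -0.111 without P5 mimic replicate 2, and that of Cdc25a ran from -0.139 to -0.008 with each library left out.

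Set against the other 42 members, the 3 reported targets differed under the mimic by less than the spread between libraries. The mean difference of the 3 minus that of the 42 came to -0.024, -0.038 and -0.014 at P5, P7 and P14, beside SDs between libraries of 0.049, 0.13 and 0.036. In single libraries the mean log2 level of the 3 relative to the 42 was -0.59, -0.60 and -0.58 in scrambled and -0.58, -0.56 and -0.69 in mimic livers at P5. At P7 it was -0.28, -0.36 and -0.56 against -0.37, -0.57 and -0.38, and at P14 -0.27, -0.22 and -0.19 against -0.22, -0.23 and -0.27. The groups overlapped at each day, and all 6 values at P14 were above all 6 at P5. The 7 members with TGCTGCT had median differences of -0.07, 0.00 and 0.09 at the 3 days. The 38 without TGCTGCT, Mcm5 and Rfc5 among them, had -0.05, 0.02 and 0.01. Gins2, which carries the longer match, differed by -0.07, -0.17 (limma adjusted p = 0.893) and 0.25 (adjusted p = 0.974). With a library left out its P7 value ran from -0.251 to -0.112 and its P14 value from 0.15 to 0.389. Of all tested genes, the 605 with the longer match had median differences of -0.00992, 0.0168 and -0.00301 at P5, P7 and P14. The 9959 without the shorter match had -0.0171, -0.00862 and 0.0032. The values are mRNA levels, so protein levels and uptake of the mimic are not seen here.

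**Figure D5:**
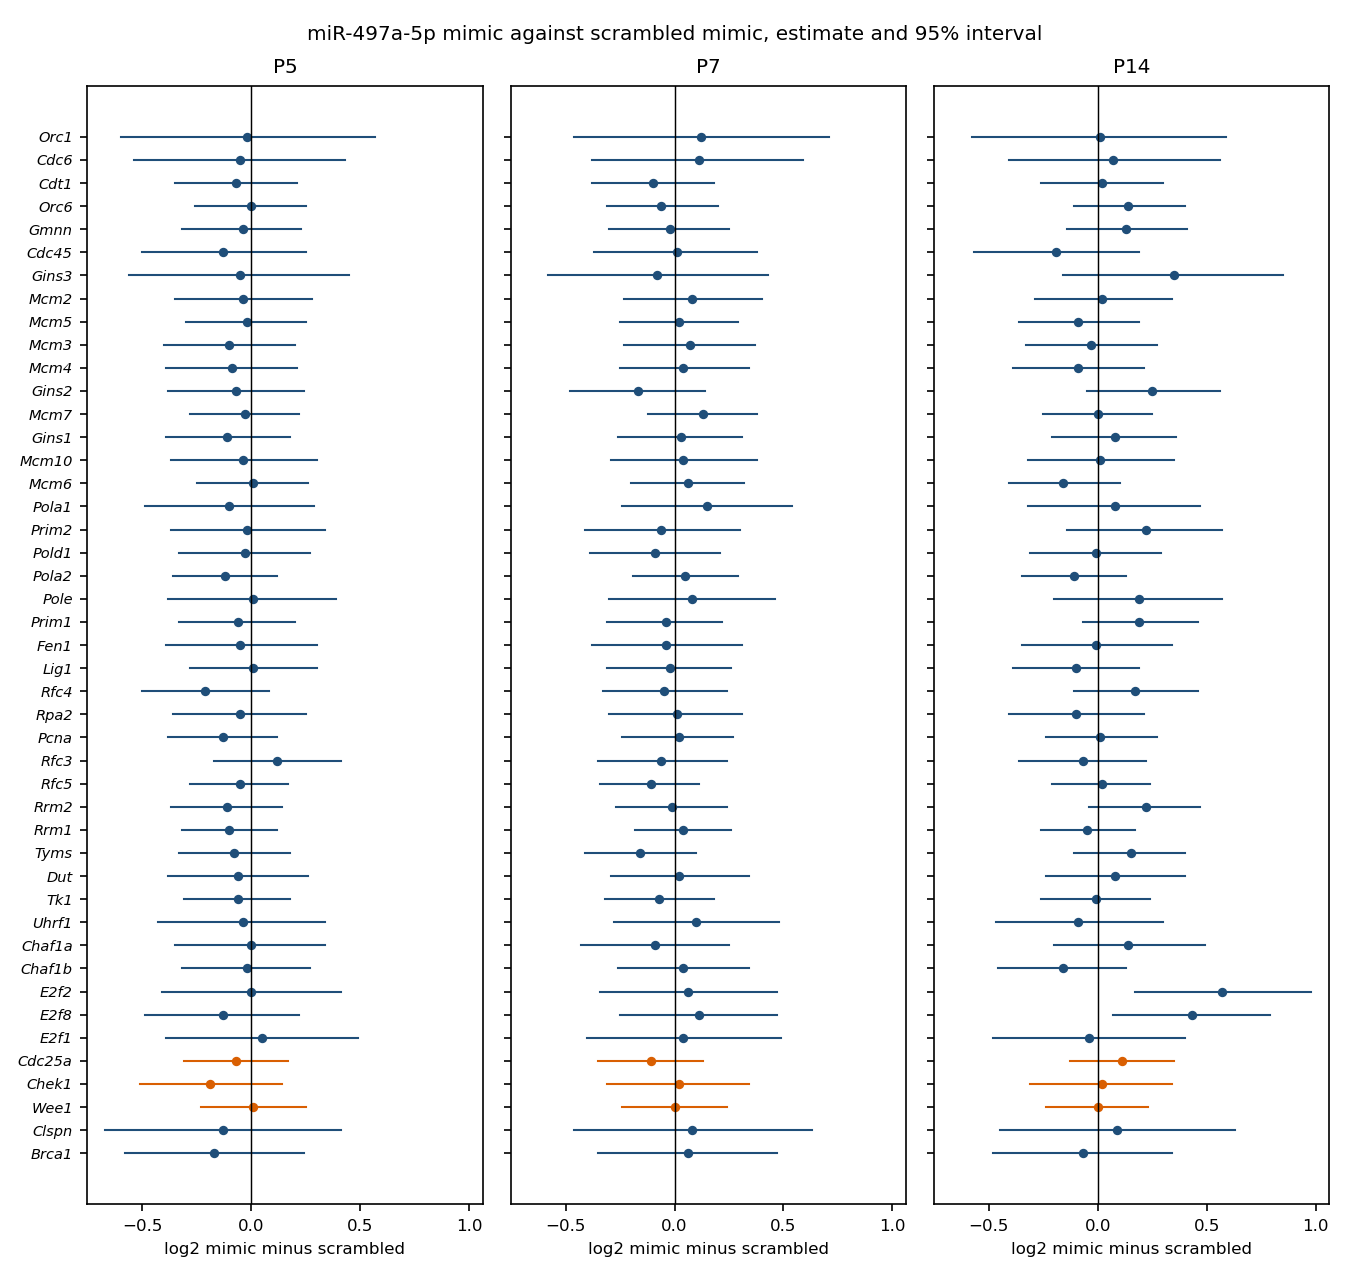
Log2 difference, mimic minus scrambled, of 45 genes (rows) at P5, P7 and P14 (panels), with 95% intervals from limma (3 against 3 livers, spread shared over 6 groups); Wee1, Chek1 and Cdc25a are in orange. At P5 and P7 every interval spans 0, and at P14 only those of E2f2 (0.57) and E2f8 (0.43) do not.

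The smallest p-values of members under the mimic were those of E2f2 and E2f8 at P14, neither of which passed. E2f2 had 107, 130 and 160 in scrambled and 172, 170 and 253 in mimic livers, a difference of 0.57 (95% interval 0.17 to 0.98, limma adjusted p = 0.668). E2f8 had 125, 106 and 82 against 122, 142 and 154, a difference of 0.43 (0.07 to 0.79, adjusted p = 0.814). The groups of E2f2 did not overlap and those of E2f8 did. With each library left out the difference ran from 0.386 to 0.72 for E2f2 and from 0.267 (without P14 scrambled replicate 3) to 0.568 for E2f8. The third E2F member, E2f1, differed by -0.04 (-0.48 to 0.40, adjusted p = 1). Beside these, the summed erythroid markers at P14 were 2097 to 2866 in scrambled and 2716 to 3760 in mimic livers. Of the 15 erythroid markers 14 lay above 0, with a median difference of 0.59. So did 14 of 14 neutrophil precursor markers (median 0.60), 9 of 10 B cell precursor markers (0.67) and 7 of 9 megakaryocyte markers (0.22), against 1 of 12 hepatocyte markers (-0.05). Of all 14104 genes 7205 lay above 0 at P14. At P7 15 of 15 erythroid (median 0.10), 9 of 9 megakaryocyte (0.74) and 9 of 10 B cell precursor markers (0.49) lay above 0. So did 4 of 14 neutrophil precursor (-0.02) and 7 of 12 hepatocyte markers (0.01), beside 6889 of all 14104 genes. None of these markers passed, and their part in the differences was not tested. Mimic and scrambled livers failed to overlap in 0 members at P5 (5.01% of all genes), in 0 at P7 (14%) and in 3 at P14 (9.31%), namely E2f2, Prim2 and Rrm2, all higher in the mimic livers. Rrm2 at P14 had 367, 372 and 352 against 403, 393 and 476, a difference of 0.22 (limma adjusted p = 0.969), or 0.13 without P14 mimic replicate 3.

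At P5 and P7 the smallest p-values belonged to genes with small differences. At P5 these were Rfc4 (-0.21, 95% interval -0.50 to 0.08), Chek1, Pcna (-0.13) and Pola2 (-0.12), each with a limma adjusted p of 1. At P7 they were Tyms (-0.16), Gins2, Mcm7 (0.13) and Rfc5 (-0.11), with adjusted p between 0.88 and 0.909. With each library left out these values moved widely: Rfc4 ran from -0.342 to -0.104, Pcna from -0.21 to -0.051, Pola2 from -0.208 to -0.061, Tyms from -0.257 to -0.106 and Mcm7 from 0.016 (without P7 scrambled replicate 1) to 0.241. The differences of E2f2 at P5 and P7 were -0.00 and 0.06, and the test of a difference between days gave E2f8 the smallest adjusted p of the members, 0.869.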

How the data were processed

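Per the labels' protocols, mRNA of the 18 livers was sequenced with a stranded kit. The values are scores that the authors deposited as whole numbers, called scaled counts above; from their look, gene counts had been brought to a common scale and rounded. The submitters' processing notes name, for the build mm10 (GRCm38), the tools featureCounts 1.6.5, DESeq2 1.26.0, Trimmomatic 0.39, Picard 2.21.7 and STAR 2.6.1d, in no stated order. The handling of duplicates and strand is not stated in the sources used. Raw library sizes are not used here, so no count model was fitted, and depth limits precision by an amount that is unknown.

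Groups came from the sample titles. The test was limma (version 3.58.1, R 4.3.3) on log2(value + 1) for the 14104 genes whose mean reached 10; the model had 6 group means and 12 residual degrees of freedom, and eBayes used a mean-variance trend. Changes with age are means of the scrambled and the mimic change. Coordinates are those of the table. Transcript lengths (the longest transcript) and 3′ UTRs came from GENCODE M21. The fit was tested on simulated data. The members, lists, tests and most alternatives were chosen with earlier results of these data known. Members named with values are the 3 reported targets, Cdc6, Cdt1, Mcm2 and Pcna, up to 4 with the largest change among those past the threshold for each interval, and the 4 with the smallest p for each mimic comparison. Of other pathway genes at most 3 each way were named, and further members were named after their values were seen, to show the range within a role. Alternatives were TMM and quantile scaling, a minimum mean of 50 or none, a pseudocount of 5, no trend, the replicate number as a block, 2 corrections for length, subsets of the libraries and each library left out.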

Additional observations from a re-analysis of the deposited data

How the results depend on the processing

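The counts of members called under the mimic were 0 in all 5 tests under every alternative run. The decrease from P5 to P14 was called in all 45 members under each alternative except in the mimic livers alone (43), and with each library left out in turn. From P7 to P14 the count lay between 31 and 40, and between 35 and 39 with a library left out. From P5 to P7 it was 0 with the slope on length as a covariate, 0 in the scrambled and 5 in the mimic livers alone, 20 to 30 under the others, and 13 to 29 with a library left out; the last kind of setting and the subsets test fewer samples, and beyond that the cause was not tested. Over all genes the calls ranged from 0 to 5073 (3798 in the analysis above), from 3706 to 7437 (7100) and from 4713 to 7590 (6878) in the 3 age comparisons, and from 0 to 1, 0 to 19, 2 to 16, 0 to 10 and 1 to 11 in the mimic comparisons at P5, P7 and P14, their average and the difference between days.

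The 3 reported targets minus the other members gave 0.026 at P14 with the median of the other members in place of the mean; with a library left out the values were -0.049 to 0.015, -0.118 to 0.028 and -0.037 to 0.004 at P5, P7 and P14. Differences near 0 changed sign. With the slope on length as a covariate Wee1 became -0.006 at P7 and 0.033 at P14, and with the length trend removed 0.003 at P14. Under quantile scaling Chek1 was -0.018 at P14 and Wee1 averaged -0.003. Without P7 scrambled replicates 2 and 3 the averages of Chek1, Cdc25a, Cdc45 and Pola2 became 0.051, 0.008, 0.046 and 0.024. In that fit only replicate 1, a library that stood apart, was left in the P7 scrambled group. With a library left out, Wee1 ran from -0.081 to 0.090 at P5, from -0.045 to 0.039 at P7, from -0.094 to 0.061 at P14, from -0.028 to 0.029 on average and, with age, from -0.061 to 0.025 between P5 and P7. In the same fits Chek1 ran from -0.137 to 0.147 at P7 and from -0.129 to 0.137 at P14, and Cdc25a from -0.025 to 0.235 at P14 and from -0.067 to 0.020 on average.

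Whether the replicate numbers pair the livers was not settled. Over 45 same-numbered pairs the correlation of deviations ran from -0.234 to 0.293 with a median of 0.0505, and 18 were over 0.1. Over 90 differently numbered pairs the median was -0.0102. With the replicate number as a block, 26, 37 and 45 members were called in the 3 age comparisons and 0 under the mimic, and Cdc6 passed from P5 to P7 (-0.435, limma adjusted p = 0.0414).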
